A study of Mus musculus with 35 samples.

Results

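T, NK and B lymphocyte markers are genes whose transcripts mark the 3 main lymphocyte classes. Here they were 33 mouse genes, 17 of T cells, 9 of NK cells and 7 of B cells. They were taken from the arrays by name, as every probe whose RefSeq accession maps to one of these symbols. This gave 43 of the 55681 probes on the array. After the filter on dim probes 32 of the 33 genes could be tested, out of 15621 genes with a symbol and 25534 features in all.

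The arrays measured lung RNA of female C57BL/6 mice aged 5 to 7 weeks, taken 24 h after 1 intratracheal instillation. Mice of 6 treated groups had been given either 18 or 54 µg of 1 material, which was NRCWE-043, NRCWE-044 or, in the last pair of groups, NRCWE-045, in a volume of 40 µl. The control group is labelled 0 µg. There were 5 arrays in each of the 7 groups, 35 in all. The materials have code names, and the title speaks of nanomaterials. What else the controls received is not stated, and RNA came from random sections of the lung. Whether each array of a group is another mouse is not stated either. The p-values therefore reflect the spread among these samples alone, which may be technical.

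T cells carry an antigen receptor that signals through the CD3 chains, the kinases Lck and Zap70 and the adaptor Lat. NK cells and cytotoxic T cells kill targets with perforin and granzymes, so Gzma, Gzmb, Prf1, Nkg7, Klrk1 and Eomes are not limited to NK cells. B cells carry an antigen receptor that signals through Cd79a and Cd79b. The resting lung holds all of these classes, both in its tissue and in the blood of its vessels, and Ccr7 guides naive and memory T cells and mature dendritic cells toward lymph nodes. Fcer2a encodes CD23, the low-affinity receptor for IgE, which interleukin 4 and CD40 signals raise on B cells. In whole-lung RNA, fewer cells of a type and less RNA per cell cannot be told apart.

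Promoter sequences were at hand for 24 of the 33 genes, 11 of T cells, 9 of NK cells and 4 of B cells, as windows from 250 bases before to 50 bases after a start site in RefSeq's annotation of GRCm38.p6. Fcer2a is shown because it was the only marker gene called against the controls. Its annotation gives several start sites. The window nearest the end of the gene, chr8:3690341-3690640, minus strand, has no marked motif and is not shown. The labels of the Fcer2a sequences below compare only the windows shown. The window at chr8:3690812-3691111, minus strand, holds a match to the STAT6 motif (TTC, any 4 bases, GAA), in capitals, which begins 168 bases before the start site. The window at chr8:3694125-3694424, minus strand, holds a match to the NF-kB motif (GGG, any 5 bases, CC) on the opposite strand and a TATA box, TATAAAA, both in capitals, 115 and 33 bases before the start site.
Fcer2a, start site nearer the end of the gene: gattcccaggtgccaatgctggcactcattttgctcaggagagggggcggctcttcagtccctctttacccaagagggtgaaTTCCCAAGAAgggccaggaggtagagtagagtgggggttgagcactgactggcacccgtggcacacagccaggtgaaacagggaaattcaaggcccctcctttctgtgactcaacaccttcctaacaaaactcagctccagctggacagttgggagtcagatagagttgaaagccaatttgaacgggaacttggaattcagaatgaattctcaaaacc
Fcer2a, start site farther upstream: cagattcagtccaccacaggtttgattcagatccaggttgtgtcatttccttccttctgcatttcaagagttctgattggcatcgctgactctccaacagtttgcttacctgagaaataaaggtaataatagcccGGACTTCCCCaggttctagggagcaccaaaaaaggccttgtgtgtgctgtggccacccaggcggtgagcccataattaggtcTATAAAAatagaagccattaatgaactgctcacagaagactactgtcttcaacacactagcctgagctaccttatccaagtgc
Searched on both strands, the STAT6 motif lies in 6.95% and the NF-kB motif in 50.8% of all 32851 windows, so the NF-kB letters are common. The TATA box, searched on the given strand, lies in 3.27%. A match describes letters and not a site in use.

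Cd3d, a CD3 chain, is shown because it was among the genes lower with NRCWE-044 at 18 µg than with NRCWE-043 at 18 µg. Its window at chr9:44981536-44981835, plus strand, holds 2 copies of the ETS motif AGGAAG on the opposite strand, in capitals as CTTCCT, 198 and 5 bases before the start site.
Cd3d: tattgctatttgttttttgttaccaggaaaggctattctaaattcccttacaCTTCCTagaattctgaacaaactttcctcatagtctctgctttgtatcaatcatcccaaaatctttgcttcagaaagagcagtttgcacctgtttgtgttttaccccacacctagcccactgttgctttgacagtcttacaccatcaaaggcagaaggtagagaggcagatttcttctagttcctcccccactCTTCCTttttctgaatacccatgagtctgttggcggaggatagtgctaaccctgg
The ETS motif, searched on both strands, lies in 35.4% of all windows, and 8 of the 11 T cell genes had it in at least 1 window, against 38.4% of all 27025 genes.

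The NK cell genes are shown for a motif that most of them hold. The RUNX core TGTGGT, searched on both strands, lies in a window of 8 of the 9 NK cell genes, 4 of the 11 T cell genes and 1 of the 4 B cell genes, and in 18.9% of all genes. Stretches of 36 bases are shown for 7 of the NK cell genes, with the core in capitals as TGTGGT or, on the opposite strand, ACCACA.
Ncr1, chr7:4337659-4337694, plus strand, 41 bases before the start site: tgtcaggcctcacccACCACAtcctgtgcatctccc
Gzma, chr13:113101011-113101046, minus strand, 50 bases before: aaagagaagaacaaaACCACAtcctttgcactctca
Gzmb, chr14:56262348-56262383, minus strand, 34 bases before: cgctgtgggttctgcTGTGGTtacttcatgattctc
Prf1, chr10:61297691-61297726, plus strand, 130 bases before: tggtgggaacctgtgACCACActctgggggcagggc
Klrb1c, chr6:128788710-128788745, minus strand, 89 bases before: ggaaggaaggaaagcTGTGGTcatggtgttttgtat
Klre1, chr6:129577969-129578004, plus strand, 229 bases before: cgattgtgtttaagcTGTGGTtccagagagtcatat
Klrk1, chr6:129623973-129624008, minus strand, 129 bases before: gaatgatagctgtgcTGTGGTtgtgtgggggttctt
Eomes, a transcription factor of NK and cytotoxic T cells, was the NK cell gene without these letters in its window.

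Each value is the log2 of lung over universal mouse reference signal after loess normalization, and a change is a difference of group means on that scale. A gene was called where limma's moderated test gave a Benjamini-Hochberg adjusted p under 0.05 over all 25534 features. A log2 ratio is set against the reference, so the ratios of different genes do not rank their levels. Per array, 42.8 to 69.3% of probes were well above background for lung RNA and the median signal was 85.5 to 345.5. Having 5 arrays in a group limits the precision. Lung epithelial markers averaged 5.28 to 6.45 on the log2 ratio scale in every array, the tissue that the labels name. Most marker genes were well measured: 21 of the 33 lay above background on all 35 arrays. The weakest were Klrk1, an activating receptor, on 2 arrays and not tested, and Blk, a B cell kinase, on 9 arrays and on none of the controls.

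**Figure D1:**
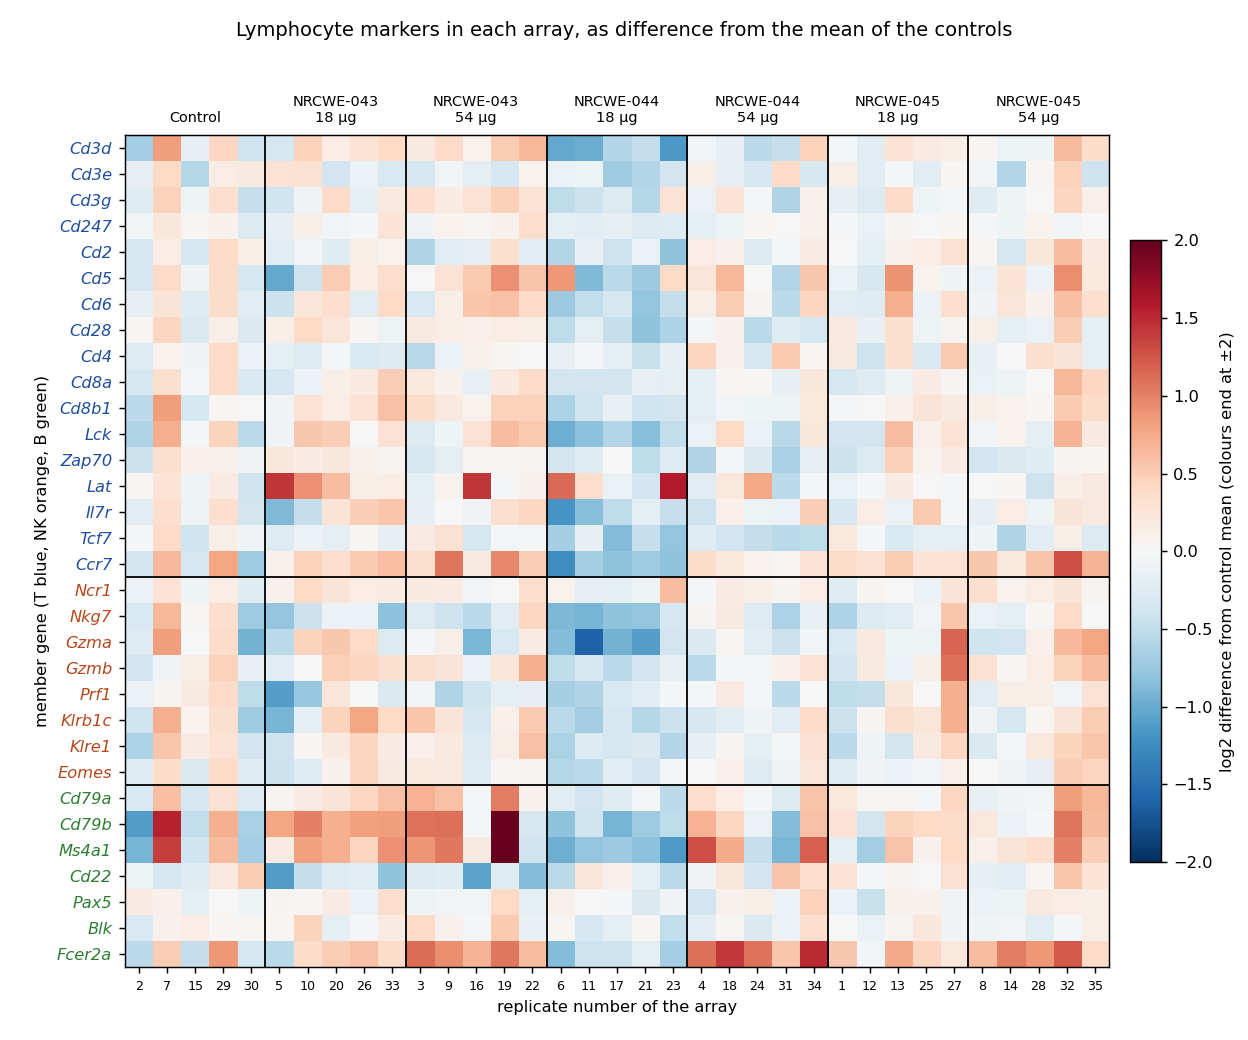
Log2 ratio of 32 lymphocyte marker genes (rows, by class) on each of 35 arrays (columns, by group), as the difference from the control mean, with colours ending at -2 and 2. The 5 arrays of NRCWE-044 at 18 µg are mostly below the control mean, and control replicates 7 and 29 stand above the other controls.

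Against the controls, 1 lymphocyte marker gene passed the test. The B cell gene Fcer2a rose with NRCWE-043 at 54 µg, by 0.88, and with NRCWE-044 at 54 µg, by 1.13, and 0 other marker genes were called in any of the 6 treated groups. With NRCWE-044 at 18 µg 30 of 32 marker genes had a negative change, with a median of -0.38 against -0.03 over all features, but limma called 0 of them and 0 of all 25534 features there, while 16 of the 32 had an unadjusted p under 0.05. The larger differences lay between treated groups: 11 marker genes were lower with NRCWE-044 than with NRCWE-043 at 18 µg, where 5.47% of all features were. They came from all 3 classes, with Gzma alone for NK cells. As given below, most of these calls were lost with median centring and all with scale normalization. The material cannot be told apart there from the phase of daily rhythm genes on these arrays.

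Counted by comparison, 0 of 32 marker genes were called with NRCWE-043 at 18 µg, where 4.2% of all features were. At an unadjusted p under 0.05 there were 4 of the 32, and 4896 of all 25534 features. With NRCWE-043 at 54 µg 1 of 32 was called, higher, against 10.3% of all features, with 5.35% higher. With NRCWE-044 at 54 µg 1 of 32 was called, higher, against 5.98% of all features, with 3.94% higher. With NRCWE-045 at 54 µg 0 were called, where 0.325% of all features were. At an unadjusted p under 0.05 there were 2 marker genes, and 2401 of all features. In these comparisons the markers' share was below or near that of all features.

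At the low dose of the other materials no feature was called at all. With NRCWE-044 at 18 µg the call rate was 0% of all features, although 2772 of the 25534 features and 16 of the 32 marker genes had an unadjusted p under 0.05. With NRCWE-045 at 18 µg the call rate was also 0%, with 713 features and 0 marker genes at an unadjusted p under 0.05. The median change of the marker genes was 0.09 and 0.15 with NRCWE-043 at 18 and 54 µg, -0.38 and -0.01 with NRCWE-044, and 0.04 and 0.14 with NRCWE-045. The median over all features lay between -0.03 and 0.01 in these 6 comparisons.

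**Figure D2:**
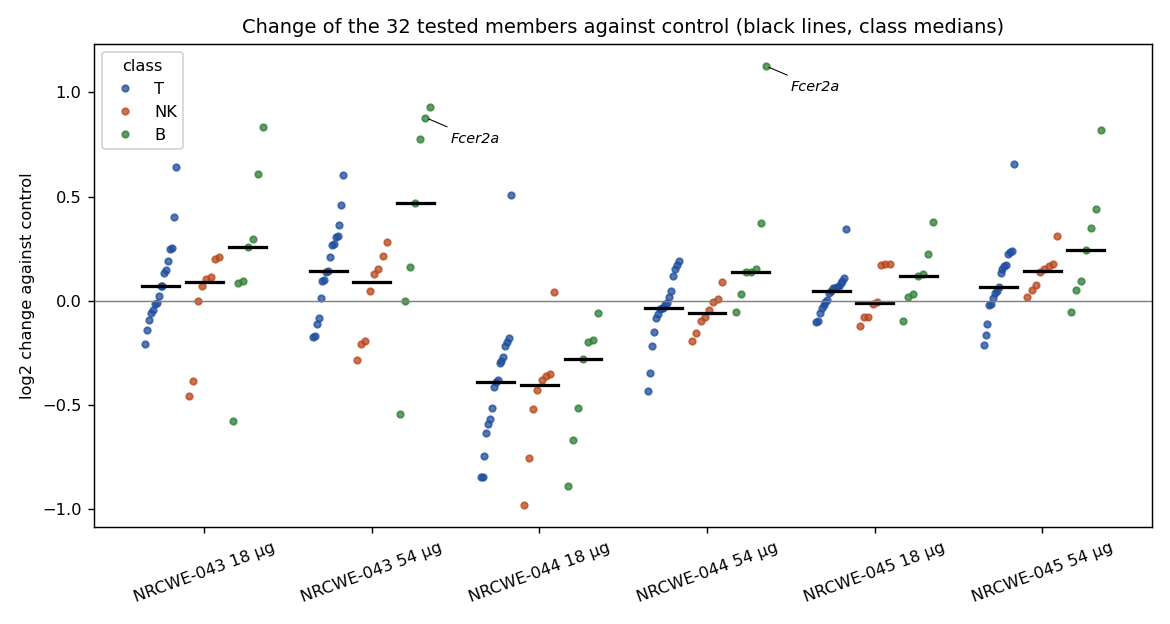
Change against the control mean (log2) of each tested marker gene in the 6 treated groups, with T, NK and B cell genes apart and a line at each class median. The points of NRCWE-044 at 18 µg lie mostly below 0 in all 3 classes, with class medians of -0.39, -0.40 and -0.28, and Fcer2a is the highest B cell gene at 54 µg of NRCWE-044.

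Among the T cell genes, limma called 0 of 17 in any treated group against control, although 11 had an unadjusted p under 0.05 with NRCWE-044 at 18 µg and 0 to 2 elsewhere. Tcf7 and Ccr7 had the largest moderated t. Tcf7 encodes TCF-1, a transcription factor of naive and memory T cells. Its log2 ratio was -1.25, -0.84, -1.61, -1.10 and -1.29 on the 5 control arrays. It was -1.89, -1.38, -2.09, -1.69 and -2.01 with NRCWE-044 at 18 µg, and -1.47, -1.61, -1.70, -1.75 and -1.72 with NRCWE-044 at 54 µg. All of these arrays lay below the control mean of -1.22 ± 0.28 (SD, n = 5), but both groups overlapped the controls.

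The change of Tcf7 was -0.59 (limma adjusted p = 0.231) at 18 µg and -0.43 (adjusted p = 0.060) at 54 µg of NRCWE-044. In the other 4 treated groups it ranged from -0.21 to 0.01. A dimmer probe of Tcf7, above background on 24 arrays, differed by -0.17 and -0.03 in the 2 groups given NRCWE-044.

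Ccr7 had log2 ratios of 2.72, 3.74, 2.74, 3.87 and 2.37 on the control arrays, a mean of 3.09 ± 0.67 (SD, n = 5). With NRCWE-044 at 18 µg it had 1.84, 2.43, 2.29, 2.37 and 2.29. Control replicate 30, at 2.37, lay within that range, and the other 4 controls above it.
With NRCWE-043 at 54 µg Ccr7 had 3.41, 4.16, 3.28, 4.05 and 3.57, and with NRCWE-045 at 54 µg 3.63, 3.30, 3.66, 4.38 and 3.76. These arrays overlapped only the 2 highest controls, replicates 7 and 29. The change was -0.84 (adjusted p = 0.261, 95% interval -1.28 to -0.41) with NRCWE-044 at 18 µg, 0.60 (adjusted p = 0.067) with NRCWE-043 at 54 µg and 0.66 (adjusted p = 0.194) with NRCWE-045 at 54 µg, and did not pass the test in any of them.

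With NRCWE-044 at 18 µg 16 of the 17 T cell genes had a negative change and 11 an unadjusted p under 0.05. Beside Tcf7 and Ccr7, the larger were Cd3d at -0.84, the kinase Lck at -0.74, the interleukin 7 receptor Il7r at -0.63, Cd6, a receptor that tunes T cell activation, at -0.57, and the co-stimulatory receptor Cd28 at -0.51. Cd6 was the one marker gene whose 5 arrays in that group did not overlap the controls. Lat, the adaptor below the receptor, was the exception at 0.51. With the other materials and doses the T cell medians lay between -0.03 and 0.14.

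**Figure D3:**
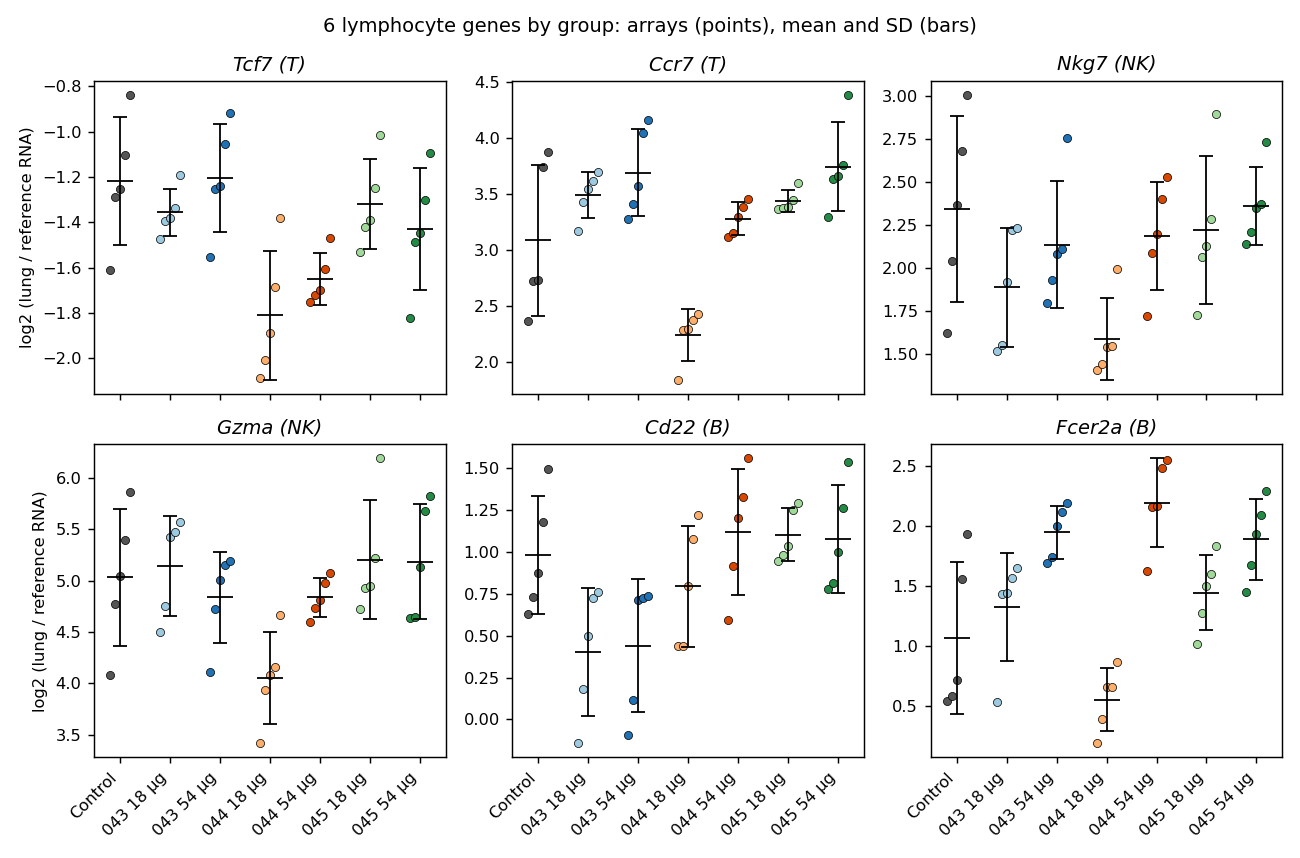
Log2 ratio (lung over reference) of Tcf7, Ccr7, Nkg7, Gzma, Cd22 and Fcer2a on each array in the 7 groups, with points for arrays, a line for the group mean and bars for 1 SD. The groups overlap the controls throughout, Fcer2a is highest in the 3 groups given 54 µg, and Ccr7, Nkg7 and Gzma are lowest with NRCWE-044 at 18 µg.

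Among the NK cell genes, limma called 0 of 8 tested against control, although 4 had an unadjusted p under 0.05 with NRCWE-044 at 18 µg and 0 or 1 elsewhere. Nkg7 and Gzma had the largest moderated t. Nkg7 encodes a membrane protein of cytotoxic granules. Its log2 ratio was 2.04, 3.00, 2.36, 2.68 and 1.63 in controls and 1.44, 1.41, 1.54, 1.55 and 2.00 with NRCWE-044 at 18 µg. The control replicate at 1.63 lay below the highest array of the treated group, so the groups overlapped. The change was -0.75 (limma adjusted p = 0.287), and its dimmer probe gave -0.77.

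Gzma, the granzyme A of cytotoxic granules, had log2 ratios of 4.77, 5.86, 5.04, 5.40 and 4.08 in controls. With NRCWE-044 at 18 µg it had 4.16, 3.42, 4.09, 3.94 and 4.66. All 5 of these arrays lay below 4 of the 5 controls, and the change was -0.98 (limma adjusted p = 0.305). Of the 8 NK cell genes 7 had a negative change in that group, with a median of -0.40. Ncr1, the receptor NKp46 that marks NK cells most closely, was at 0.04 there. It was dim, and replicates 11 and 17 of that group were not above background. Replicate 23 stood at 0.84, against 0.29, 0.06, 0.02 and 0.11 on the other arrays of the group, so the value of 0.04 leans on that array. With the other materials and doses the NK cell medians lay between -0.06 and 0.14.

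Among the B cell genes Fcer2a was called. Its log2 ratio was 0.54, 1.56, 0.58, 1.93 and 0.72 on the control arrays, 1.07 ± 0.64 (SD, n = 5). It was 2.19, 2.00, 1.74, 2.11 and 1.69 with NRCWE-043 at 54 µg, and 2.16, 2.48, 2.15, 1.62 and 2.55 with NRCWE-044 at 54 µg. The controls fell into 3 low arrays and 2 high ones, replicates 7 and 29, and all treated arrays lay above the low ones and overlapped the high ones.

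The rise of Fcer2a was 0.88 (SE 0.23, limma adjusted p = 0.013, 95% interval 0.40 to 1.35) with NRCWE-043 at 54 µg, or 1.84-fold. With NRCWE-044 at 54 µg it was 1.13 (SE 0.23, adjusted p = 0.003, 95% interval 0.65 to 1.60), or 2.18-fold. With NRCWE-045 at 54 µg it had 1.68, 2.09, 1.93, 2.29 and 1.44, a change of 0.82 (adjusted p = 0.122, 95% interval 0.35 to 1.30) that did not pass the test. The intervals of the 3 materials overlapped widely.

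Fcer2a at 18 µg stood at 0.53, 1.44, 1.56, 1.65 and 1.44 with NRCWE-043, and at 1.60, 1.01, 1.83, 1.5 and 1.27 with NRCWE-045. With NRCWE-044 at 18 µg it stood at 0.19, 0.66, 0.65, 0.87 and 0.39. NRCWE-044 thus gave both the lowest and the highest group mean of Fcer2a, 0.55 ± 0.26 and 2.19 ± 0.37 (SD, n = 5). Within the 2 slides that held both groups Fcer2a was higher with NRCWE-043 at 54 µg than in controls by 1.14 and 1.34, and within 3 slides with NRCWE-044 at 54 µg by 0.90 to 1.89. Each of these rests on 1 or 2 arrays a side. The highest control, replicate 29 at 1.93, lay on a slide without either group and is not in them.

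The call of Fcer2a with NRCWE-043 at 54 µg depended on single controls, with adjusted p of 0.051, 0.050 and 0.052 without control replicate 2, 15 or 30. Markers of fat were high on 5 arrays, more than 1.5 log2 units above the median of all arrays, and 4 of these were replicates 9 and 19 of NRCWE-043 and 4 and 34 of NRCWE-044 at 54 µg. Without the 5 arrays the changes were 0.81 (limma adjusted p = 0.106) and 1.02 (adjusted p = 0.077), and neither was called. Both calls of Fcer2a were also lost with median centring in place of loess, at 0.93 (adjusted p = 0.072) and 1.03 (adjusted p = 0.19), and with scale normalization between arrays, at 0.17 and 1.64 (adjusted p = 0.94 and 0.95). With the Cy5 channel alone that of NRCWE-043 was lost, at 0.72 (adjusted p = 0.085), and that of NRCWE-044 was kept, at 1.13.

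Cd22, an inhibitory receptor of B cells, had log2 ratios of 0.87, 0.63, 0.73, 1.18 and 1.49 in controls. It had -0.14, 0.50, 0.72, 0.76 and 0.18 with NRCWE-043 at 18 µg and 0.71, 0.74, -0.09, 0.72 and 0.12 at 54 µg. Of these 10 arrays 5 lay below the lowest control and 5 within the controls' range, and the changes were -0.58 (limma adjusted p = 0.108) and -0.54 (adjusted p = 0.093).
The other B cell genes did not go the same way. With NRCWE-043 at 54 µg the receptor chains Cd79a and Cd79b stood at 0.47 and 0.78, and Ms4a1, which encodes CD20, at 0.93, with adjusted p of 0.149 to 0.220. Replicate 19 of that group carried much of this, with Ms4a1 at 2.19 and Cd79b at 1.87, and its score for lymph node stroma was 2.50 against 1.49 to 2.50 over the group.

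The controls themselves spread widely in these genes. The mean log2 ratio over the T cell markers was 0.54 and 0.42 in control replicates 7 and 29 and between -0.15 and -0.05 in the other 3. Over the B cell markers it was 0.83 and 0.67 against -0.17 to 0.06. Replicates 7 and 29 were also left out, a choice made after seeing the data. They were the controls highest in these means, so a rise against the remaining controls was partly built in. NRCWE-043 at 54 µg then had 8 marker genes called, all higher. They were Fcer2a, Cd79a, Cd79b and Ms4a1 of B cells and Ccr7, Cd3d, Cd3g and Cd8b1 of T cells. The share of all features called in that setting is not given, so the count is no test of a rise. With the same replicates left out, the median with NRCWE-044 at 18 µg became -0.16.

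Genes with a known daily rhythm also differed between these arrays. A clock score, the mean of genes that peak with Dbp less the mean of those that peak with Arntl, was 2.02 and 2.37 in control replicates 7 and 29 and 0.04, 1.43 and -0.69 in replicates 2, 15 and 30. It ran from -0.95 to -0.18 with NRCWE-044 at 18 µg and from -0.75 to -0.11 at 54 µg, and from 1.03 to 2.43 over all arrays of NRCWE-043 and NRCWE-045. The arrays of NRCWE-044 did not overlap those of the other materials, while the controls spanned both. The labels used here give no hour of collection.

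**Figure D4:**
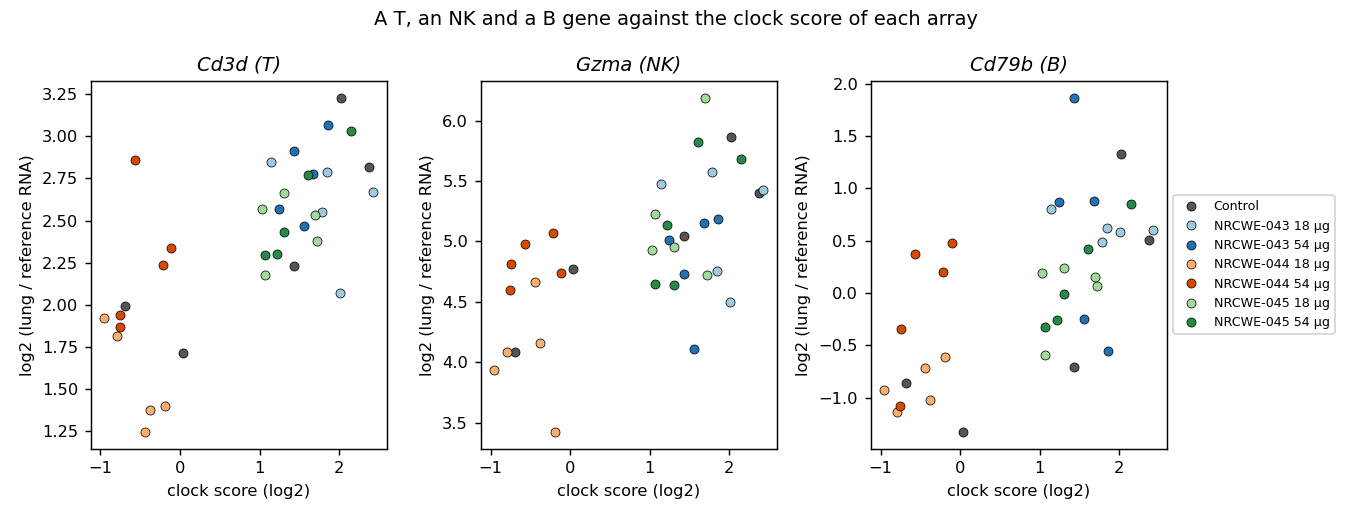
Log2 ratio of Cd3d, Gzma and Cd79b (vertical axes) against the clock score (log2, horizontal axis) on 35 arrays coloured by group. The 10 arrays of NRCWE-044 lie below a clock score of 0, controls lie on both sides, and at a clock score below 0 the arrays of NRCWE-044 at 54 µg lie mostly above those at 18 µg.

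At the matched dose of 18 µg, lymphocyte markers were lower on the arrays of NRCWE-044 than on those of NRCWE-043. The clock scores of these arrays did not overlap either. 11 of 32 marker genes were lower and 0 higher, 7 of 17 of T cells, 1 of 8 of NK cells and 3 of 7 of B cells, where 10.9% of all features were called, 5.47% lower and 5.41% higher. A further 11 had an unadjusted p under 0.05, where 6281 of the 25534 features did, called ones included. Of the 32 changes 29 were negative with a median of -0.44, against -0.02 over all features. Blk is among the 29. It passed the filter on dim probes through NRCWE-043 at 18 µg alone, which favoured this direction. With median centring 2 of the 11 calls were left, Ccr7 and Cd79b, and with scale normalization 0. Under scale normalization Ccr7, Cd3d and Gzma turned to 0.51, 0.37 and 1.31, and 22 of 32 differences were negative with a median of -0.15. The genes named next were chosen because they were called.

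The T cell genes called were Ccr7, Cd3d, Cd28, Lck, Cd8b1, Tcf7 and Cd6, from homing receptor to receptor chain, co-receptor and kinase. Ccr7 had 3.17, 3.54, 3.43, 3.62 and 3.70 with NRCWE-043 at 18 µg, all above every array of NRCWE-044 at 18 µg, and was lower by 1.25 (SE 0.21, limma adjusted p = 0.00015) or 2.37-fold with NRCWE-044.
Cd3d had log2 ratios of 2.07, 2.85, 2.55, 2.67 and 2.79 with NRCWE-043 and 1.38, 1.40, 1.82, 1.92 and 1.24 with NRCWE-044, also with no overlap. Its difference was -1.03 (SE 0.22, adjusted p = 0.0016), a 2.05-fold lower ratio.

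Lck had log2 ratios of -0.76, -0.16, -0.20, -0.69 and -0.41 with NRCWE-043 and -1.67, -1.52, -1.29, -1.54 and -1.20 with NRCWE-044, a difference of -1.0 (limma adjusted p = 0.0038). Cd8b1, a chain of the CD8 co-receptor, had 0.52, 0.88, 0.74, 0.87 and 1.18 against -0.05, 0.20, 0.45, 0.19 and 0.23, a difference of -0.64. Cd28 had -1.27, -0.99, -1.15, -1.37 and -1.5 against -1.89, -1.57, -1.84, -2.20 and -2.01, a difference of -0.65. In all 3 the groups did not overlap. Tcf7 and Cd6 were lower by 0.45 and 0.64 with overlapping groups.
Cd4, the co-receptor of helper T cells, stood at 0.01 (95% interval -0.32 to 0.34), Cd5 at -0.09 and Lat at -0.13, and none of them passed the test. The CD3 chains Cd3e and Cd3g stood at -0.34 and -0.29 and did not pass it either, so the 3 CD3 chains differed in their call.

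Of the NK cell genes Gzma was called. It had log2 ratios of 4.5, 5.48, 5.57, 5.42 and 4.76 with NRCWE-043 at 18 µg, against 3.42 to 4.66 with NRCWE-044, with 1 array of the latter inside the range of the former. The difference was -1.09 (SE 0.30, limma adjusted p = 0.015), a 2.13-fold lower ratio, and without replicate 11 of NRCWE-044 it was no longer called. Gzmb, Klrb1c and Klre1 stood at -0.58, -0.62 and -0.50, with adjusted p of 0.055 to 0.117. Prf1, which encodes perforin, stood at 0.02 and the dim Ncr1 at -0.17.

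Of the B cell genes Cd79b, Ms4a1 and Fcer2a were called. Cd79b had log2 ratios of 0.58, 0.80, 0.49, 0.60 and 0.62 with NRCWE-043 at 18 µg and -1.02, -0.61, -1.14, -0.93 and -0.72 with NRCWE-044. The groups stood more than 1 unit apart with no overlap, while the controls, from -1.33 to 1.33, covered both. The difference was -1.5 (SE 0.38, limma adjusted p = 0.0094), a 2.83-fold lower ratio.
Ms4a1 had -0.56, 0.09, -0.01, -0.30 and 0.18 against -1.70, -1.51, -1.46, -1.54 and -1.86, a difference of -1.5 (adjusted p = 0.026). Fcer2a differed by -0.77 (adjusted p = 0.029). Cd22 stood at 0.39 (adjusted p = 0.24), opposite in sign to the called B cell genes, and the dim Pax5 and Blk at -0.15 and -0.28. Blk entered the test through NRCWE-043 at 18 µg alone, so its lower value with NRCWE-044 is no support.

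The low-dose difference was seen within slides too. On the 4 slides that held both groups 26, 29, 30 and 29 of 32 marker genes were lower with NRCWE-044, with medians of -0.29, -0.48, -0.66 and -0.62, each from a few arrays. With the clock score as a covariate, added after seeing the data, limma called 0 of 32 marker genes, with the share of all features not given. The median was -0.08, and 18 of 32 were negative. Ccr7 then stood at -0.29 (limma adjusted p = 0.88), Cd3d at -0.31 and Cd79b at -0.15. Since the clock scores of these 2 materials do not overlap, the material and the clock phase of the arrays cannot be told apart in this comparison.

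**Figure D5:**
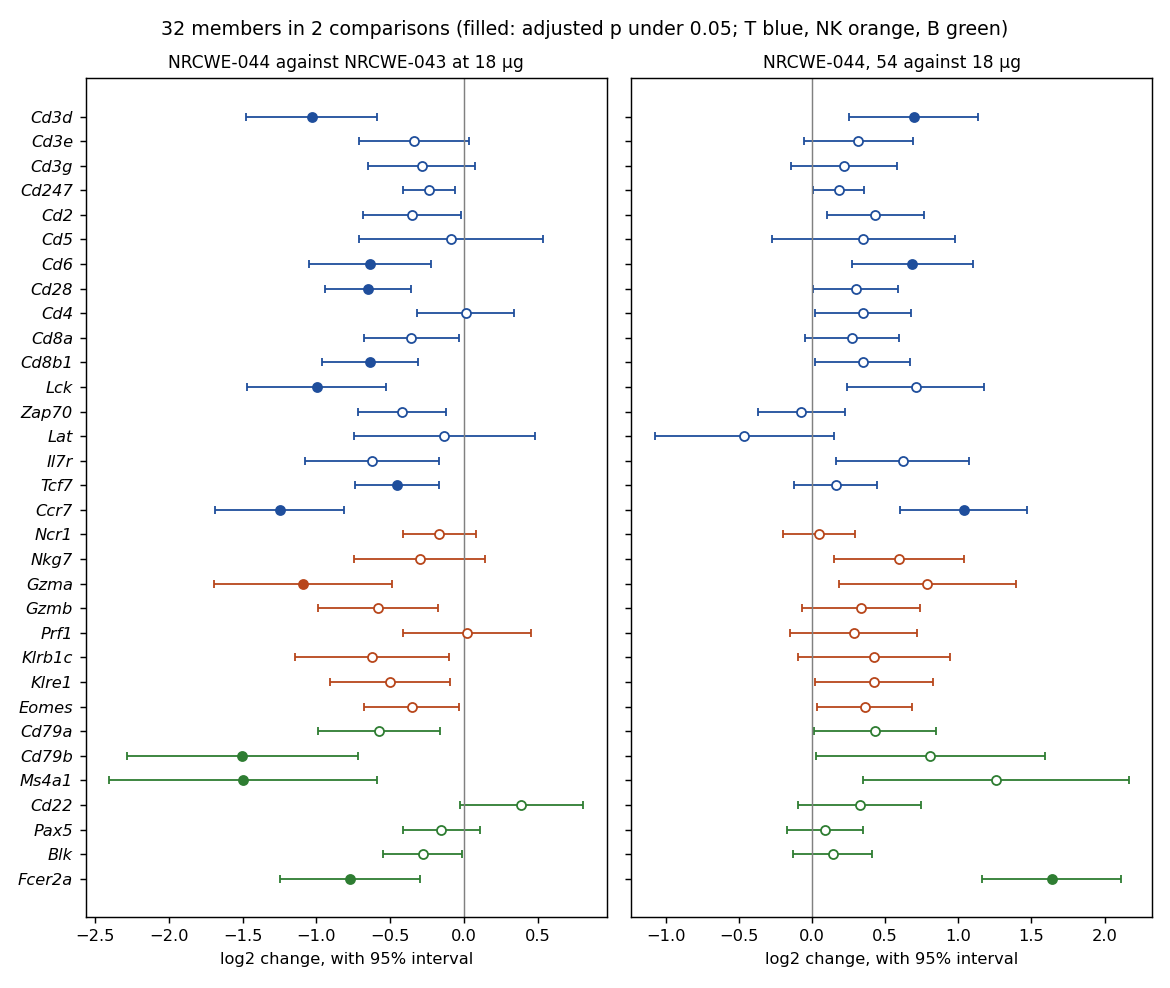
Difference (log2) of each marker gene between NRCWE-044 and NRCWE-043 at 18 µg and between 54 and 18 µg of NRCWE-044, with 95% intervals and filled points for an adjusted p under 0.05. 11 genes are filled on the negative side of the first comparison, and Fcer2a, Ccr7, Cd3d and Cd6 on the positive side of the second.

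Between the doses of NRCWE-044 the marker genes went the other way. 4 of 32 were higher at 54 than at 18 µg, 3 of T cells and 1 of B cells, where 6.45% of all features were called and 4.82% were higher. A further 14 had an unadjusted p under 0.05, where 5102 of the 25534 features did, called ones included. Only Zap70 and Lat had a negative change. The calls fell to 1 with median centring, Fcer2a, to 0 with scale normalization and to 2 without the arrays with fat markers, Fcer2a and Ccr7. The medians were 0.35 for T cell, 0.39 for NK cell and 0.43 for B cell genes, against 0.03 over all features.

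Fcer2a rose by 1.64 (SE 0.23, limma adjusted p = 4.0e-05), or 3.12-fold, with the lowest array at 54 µg, 1.62, above the highest at 18 µg, 0.87. Ccr7 rose by 1.04 (SE 0.21, adjusted p = 0.0023) to 3.45, 3.30, 3.16, 3.11 and 3.38, again with no overlap. Cd3d rose by 0.69 (adjusted p = 0.048) and Cd6 by 0.69 (adjusted p = 0.035), with overlapping groups, and each call was lost when any of 6 arrays was left out.
The receptors Klrb1c and Klre1 of NK cells did not overlap between the doses but stood at 0.42 each, with adjusted p of 0.37 and 0.23. On the 3 slides that held both doses Fcer2a was higher by 1.52 to 1.97 and Ccr7 by 0.83 to 1.61. The clock scores of the 2 doses overlapped, and with the score as a covariate 6 marker genes were called and Fcer2a stood at 1.62. The share of all features called with the covariate is not given, so the 6 cannot be set against a background. Since the comparison shares its 18 µg arrays with the one before it, the 2 are not independent.

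The other dose steps had fewer differences. With NRCWE-043 0 of 32 marker genes were called by limma between 54 and 18 µg, where 1.17% of all features were. At an unadjusted p under 0.05 there were 3731 of the 25534 features and 1 marker gene. That gene was Fcer2a, at 0.62 (adjusted p = 0.19), whose 2 groups did not overlap. With NRCWE-045 0 were called, with 0% of all features, and 0 had an unadjusted p under 0.05. The dose step of NRCWE-044 was not shown to differ from that of the other materials: 0 marker genes and 0% of all features were called in each of the 3 tests of such differences. At an unadjusted p under 0.05 there were 5 against the step of NRCWE-043 and 2 against that of NRCWE-045. Of all 25534 features 822 and 1145 were under it.

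Of the other pairs at matched dose, NRCWE-045 stood above NRCWE-044 at 18 µg in 2 of 32 marker genes, where 0.446% of all features were called and 0.36% were higher. These were Ccr7, by 1.19 (limma adjusted p = 0.0080), and Cd3d, by 0.91 (adjusted p = 0.047). The median was 0.44, against 0.03 over all features. The arrays of 11 genes, among them Gzma, Lck, Cd28, Cd79b and Fcer2a, did not overlap. The share of all features without overlap is not given, so this count cannot be read as particular to the markers. Some gaps were small: for Cd79b the lowest array with NRCWE-045 was -0.59 and the highest with NRCWE-044 -0.61. Here too the clock scores of the materials did not overlap. With NRCWE-044 against NRCWE-043 at 54 µg 2 of 32 were called, where 7.65% of all features were, 5.48% higher and 2.17% lower: Cd22 was higher by 0.68 (adjusted p = 0.035) and Tcf7 lower by 0.45 (adjusted p = 0.042).

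Cd22 was also higher with NRCWE-045 than with NRCWE-043 at 18 µg, by 0.70 (limma adjusted p = 0.028), the 1 marker gene called where 8.56% of all features were, 6.02% higher. Its arrays were 1.25, 0.95, 1.04, 0.98 and 1.29 with NRCWE-045, all above those of NRCWE-043. At 54 µg 0 marker genes were called in that pair, where 5.39% of all features were. Cd22 was the one with an unadjusted p under 0.05, where 3982 of the 25534 features had one. It stood at 0.64 (adjusted p = 0.067), again with no overlap. Between NRCWE-045 and NRCWE-044 at 54 µg 0 were called, with 0% of all features. There 1 marker gene and 1543 of the 25534 features had an unadjusted p under 0.05. All p-values were adjusted over features within a comparison and not over the 6 pairs.

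Other lymphocyte genes, from lists drawn up beside the markers, gave similar counts. The lists were chosen with earlier results of these data known and were read on the same arrays, so they are no independent support. The clock scores of NRCWE-044 and NRCWE-043 do not overlap here either. Counts for these lists with other normalizations or with the clock score as a covariate are not given. At 18 µg, 7 of 24 other T cell genes, 6 of 17 NK cell genes and 7 of 23 B cell genes were lower with NRCWE-044 than with NRCWE-043, and 0 were higher, where 5.47% of all features were lower. Among them were the Ly49 receptor Klra8 at -1.57, the interleukin 2 receptor chain Il2rb at -0.99, and Fcmr, the receptor for IgM, at -1.59. Of 8 genes shared by all leukocytes 5 were lower, among them Ptprc, which encodes CD45, at -0.67. With NRCWE-044 at 54 against 18 µg 3, 5 and 2 of these T, NK and B cell genes and 7 of the 8 shared genes were higher, where 4.82% of all features were.

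Against control at 54 µg, 2 of 24 other T cell genes rose with NRCWE-043: Il2ra, a chain of the interleukin 2 receptor, by 0.55 (limma adjusted p = 0.033), and the adaptor Fyb, by 0.62 (adjusted p = 0.022). With 5.35% of all features higher there, this count is near the background. With NRCWE-044 1 of 24 fell: Lef1, a transcription factor related to Tcf7, at -0.45 (adjusted p = 0.028). There 5.98% of all features were called in either direction, most of them higher (3.94% of all features). Limma called 0 of 17 other NK cell genes and 0 of 23 other B cell genes at 54 µg of any material. At an unadjusted p under 0.05 there were 2, 0 and 0 of the NK cell genes and 5, 1 and 1 of the B cell genes with NRCWE-043, NRCWE-044 and NRCWE-045. Of all 25534 features 5886, 4989 and 2401 were under that cut, in the same order. The shares of both lists were below or near these. Of 8 genes shared by leukocytes 6 rose with NRCWE-043, where 5.35% of all features did, and 1 with NRCWE-044, where 3.94% did.

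Of 11 genes for lymphocyte chemokines and homing, 3, 2 and 1 rose with NRCWE-043, NRCWE-044 and NRCWE-045 at 54 µg and 0 fell, with medians of 0.34, 0.08 and 0.31. Of all features 10.3%, 5.98% and 0.325% were called in either direction there. With NRCWE-043 5.35% and with NRCWE-044 3.94% were higher. Cxcl10, a ligand of the T and NK cell receptor CXCR3, rose by 3.18, 3.25 and 2.14 with NRCWE-043, NRCWE-044 and NRCWE-045 at 54 µg. The B cell chemokine Cxcl13 rose by 1.26 (limma adjusted p = 0.049) and 1.98 (adjusted p = 0.003) with NRCWE-043 and NRCWE-044 and stood at 0.20 with NRCWE-045. Of 4 cytokines that act on lymphocytes 0, 1 and 1 rose and 1, 1 and 0 fell with the 3 materials. Tnfsf13b, which encodes the B cell survival factor BAFF, rose by 0.88 (adjusted p = 0.00055) with NRCWE-044 and 0.70 (adjusted p = 0.038) with NRCWE-045 and stood at 0.44 (adjusted p = 0.063) with NRCWE-043. Tslp fell by 0.44 (adjusted p = 0.049) with NRCWE-043 and Il18 by 0.77 (adjusted p = 0.034) with NRCWE-044, while Il15 stood at 0.05, -0.18 and 0.03.

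Across arrays, with the group means taken out, the correlations of Cd3e, Cd79b and Ncr1 over the 35 arrays did not pass the test. Pearson's r was 0.17 for Cd3e with Cd79b, 0.25 for Cd3e with Ncr1 and 0.23 for Cd79b with Ncr1, with permutation p of 0.39, 0.30 and 0.30 after adjustment over the 3 pairs. Spearman's rho was 0.17, 0.23 and 0.25 (adjusted permutation p = 0.39, 0.30 and 0.30). Without the 2 arrays farthest out r was 0.022, 0.21 and 0.19, and with slide means also taken out it was 0.36, 0.32 and 0.26 (adjusted p = 0.13 each). Ncr1 was dim and not above background on every array, which limits the pairs that hold it.

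Cd3d and Gzma were put in place of Cd3e and Ncr1 after those values were seen, so their correlations are given as a description with no test. Over the 35 arrays Pearson's r was 0.64 for Cd3d with Cd79b, 0.52 for Cd3d with Gzma and 0.41 for Cd79b with Gzma. Without the 2 arrays farthest out it was 0.48, 0.45 and 0.36. In the first 2 pairs the arrays left out were control replicates 2 and 7.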

How the data were processed

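The scanner files hold spot intensities, extracted with Feature Extraction 11.0.1.1 per the file headers: Cy5 carries lung RNA (200 ng) and Cy3 a universal mouse reference, in 1 orientation on all 35 arrays. The authors also deposited a value per probe as a log2 ratio, used as an alternative. Its normalization is not stated in the sources used. Median intensities were corrected with normexp (offset 50) and normalized by loess within arrays in limma 3.58.1 (R 4.3.3). Marked spots (0.543%) were left out. Probes entered the test where 3 or more of the 5 arrays of some group lay well above background in Cy5. The brightest tested probe stood for a gene, and symbols came through RefSeq's GRCm38.p6 annotation. Linear models over 35 arrays with eBayes gave 18 comparisons. Exact permutation tests over 252 splits and correlations with 100000 permutations used Python 3.11.15 with scipy 1.17.1, and figures matplotlib 3.10.9. The procedure was tested on simulated data. Genes given on every array are those called against control, or else the 2 of a class with the largest moderated t, and genes called between treated groups. The members and lists were chosen with earlier results of these data known, and 4 alternatives were added after seeing the data. Alternatives changed the background correction, normalization, filter, probe summary, slides, variance model and arrays.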

Additional observations from a re-analysis of the deposited data

Results flagged for a closer look

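In 4 of 91 sets of 5 arrays looked at (13 marker genes in 7 groups), a single array stood far from the other 4 by Dixon's ratio, above the 95% critical value of 0.71. Chance flags about 1 in 20 such sets. Ccr7 was lowest at 1.84 in replicate 6 of NRCWE-044 at 18 µg, with the next array at 2.29. An exact 2-sided permutation test of that group against control gave p = 0.0238 for the change of -0.84, where the smallest p that 5 against 5 arrays allow is 0.00794. Nkg7 was highest at 2.00 in replicate 23 of NRCWE-044 at 18 µg, with the next at 1.55, and the exact permutation test against control gave p = 0.0159 for the change of -0.75. That array also had the highest median Cy5 signal, 345.5, and was 1 of the 5 with high fat markers. Fcer2a was lowest at 0.53 in replicate 5 of NRCWE-043 at 18 µg, with the next at 1.44, and the exact permutation test against control gave p = 0.492 for the change of 0.26. Cd79b was lowest at -0.59 in replicate 12 of NRCWE-045 at 18 µg, with the next at 0.07. The part of these arrays in the results was not tested further than by leaving each out.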

How the results depend on the processing

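Marker genes called with NRCWE-043 at 18 µg numbered 0, and 4 without control replicates 7 and 29 and 1 with clock score as covariate. With NRCWE-043 at 54 µg 1 was called: 2 without background correction and with array weights, 8 without control replicates 7 and 29, and 0 with median centring, with scale normalization between arrays, with the Cy5 channel alone and without the arrays with fat markers. With NRCWE-044 at 54 µg 1 was called: 0 with median centring, scale normalization and without the arrays with fat markers, and 2 with slide as a fixed or random block, without control replicates 7 and 29, without replicates 5, 6, 10 and 23 and with the clock score. With NRCWE-045 at 54 µg 0 were called: 1 with array weights and without replicates 5, 6, 10 and 23, and 2 without control replicates 7 and 29. Over the 3 dose steps 4 were called: 1 with median centring, 0 with scale normalization, 7 with slide as a random block and with array weights, and 2 without the arrays with fat markers. Over the 6 pairs of materials 16 were called: 3 with median centring, 0 with scale normalization, 10 without the arrays with fat markers and 0 with the clock score. The shares of all features called under these alternatives are not given, so the counts cannot be set against a background. Control replicates 7 and 29 were the controls highest in the mean T and B cell markers, so the counts without them are no test of a rise.

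With each array left out in turn the counts ran from 0 to 2 (NRCWE-043, 18 µg), 0 to 5 (NRCWE-043, 54 µg), 0 to 1 (NRCWE-044, 18 µg), 1 to 2 (NRCWE-044, 54 µg), 0 to 0 (NRCWE-045, 18 µg), 0 to 2 (NRCWE-045, 54 µg), 2 to 6 (dose steps), 11 to 21 (pairs of materials) and 0 to 0 (differences of dose effects). NRCWE-043 at 54 µg had 5 without control replicate 7 and 0 without control replicate 2, 15 or 30; Ccr7 was called lower with NRCWE-044 at 18 µg without control replicate 30, and NRCWE-045 at 54 µg had 2 without control replicate 29. Scale normalization turned 10 single changes: Ccr7 to -3.07, -2.25 and -1.70 with NRCWE-043 at 18 and 54 µg and NRCWE-045 at 54 µg, Fcer2a to -0.56 with NRCWE-043 at 18 µg, Tcf7 to 0.25 and 0.095 with NRCWE-044 at 18 and 54 µg and to 0.89 with NRCWE-045 at 54 µg, and Ccr7, Cd3d and Gzma to 0.51, 0.37 and 1.31 between NRCWE-044 and NRCWE-043 at 18 µg. The cause was not tested. The unadjusted p of the exact tests of Ccr7 and Nkg7 with NRCWE-044 at 18 µg was no longer under 0.05 with median centring, at changes of -0.81 and -0.80. With Cd3d and Gzma in place of Cd3e and Ncr1, chosen after seeing the data, the correlations were 0.642, 0.523 and 0.413, which is no independent test. Of 1624 alternatives over 56 single-gene results, 1420 kept direction and call, 172 lost the call, 22 gained it and 10 turned. No array passed the limit of 1.5 on thymocyte or lymph node stroma markers, so leaving such arrays out gave no value. No paired analysis was possible because the groups share no replicate numbers.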

Other observations

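Genes of mature dendritic cells, which use Ccr7 as well, were put in a list after seeing the data. With NRCWE-044 at 54 µg 3 of 10 rose, where 3.94% of all features did: Batf3, a transcription factor of dendritic cells, by 1.46 (limma adjusted p = 0.00014), the enzyme Il4i1 by 1.81 (adjusted p = 0.00046) and the chemokine Ccl17 by 1.95 (adjusted p = 0.0061). The other 7 stood between -0.18 and 0.52. With NRCWE-043 at 54 µg Il4i1 and Batf3 rose by 1.30 and 0.82, and Ccl17 stood at 1.21 (adjusted p = 0.081). With NRCWE-045 at 54 µg the 3 genes stood at 1.32, 0.89 and 1.65 without passing the test, and at 18 µg of NRCWE-044 at 0.12, -0.06 and -0.20. Ccr7 itself was not called against control in any of these groups.

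Genes around CD23 and type 2 signalling were also listed after seeing the data. Of these 11 were tested, and only some are given here. Cr2, the complement receptor that binds CD23, stood at 0.35, 0.13 and 0.31 with NRCWE-043, NRCWE-044 and NRCWE-045 at 54 µg and was not called. Adam10, the protease that sheds CD23, stood at 0.22, -0.02 and 0.08, and the interleukin 4 receptor chain Il4ra at 0.21, 0.16 and 0.09. Of genes that interleukin 4 raises in macrophages, Arg1 rose by 2.44 and 2.48 and Ccl24 by 3.41 and 4.18 with NRCWE-043 and NRCWE-044 at 54 µg, and stood at 1.06 (limma adjusted p = 0.19) and 2.49 (adjusted p = 0.091) with NRCWE-045. Of all features 5.35% and 3.94% were higher with NRCWE-043 and NRCWE-044 at 54 µg. Il4 itself stood at 0.17, 0.23 and 0.05. Whether interleukin 4 had a part in these values was not tested.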
